A study of Mus musculus with 60 samples.

Results

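The Hox genes described here were the 39 protein-coding mouse genes whose symbol is Hoxa, Hoxb, Hoxc or Hoxd followed by a number, out of 56980 gene identifiers counted by RNA-seq in 60 libraries of cultured mouse fibroblasts. Hox genes encode transcription factors that bind DNA through a homeodomain. They lie in clusters on separate chromosomes, and their order along a cluster follows the order in which they are used along the body axis, so that low-numbered members mark the head end and high-numbered members the tail end of the trunk. Fibroblasts taken from different parts of the body are known to keep a Hox pattern of their site of origin in culture, and the genes numbered 13 are known for their use in the tail end of the trunk, the distal limb and the genital tubercle. Members that carry the same number in different clusters are called paralogs. By paralog number, 8 members were anterior (groups 1 to 3), 15 were central (groups 4 to 8) and 16 were posterior (groups 9 to 13).

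The libraries formed 20 groups of 3 in 2 count tables. The inhibitor table held 24 libraries of 8 groups. Its WT tail tip and WT skin fibroblasts came from Ercc1+/+ females of 14 weeks, and its D/KO tail tip fibroblasts came from Ercc1 Δ/- females of 4 weeks, which carry 1 truncated Ercc1 allele over a null allele. D/KO fibroblasts were cultured without inhibitor or for 3 days with Repsox or Vactosertib at 0.1 µM, or with A83-01 or DMH-1 at 1 µM. Repsox, Vactosertib and A83-01 block ALK5, a TGF-β receptor, and DMH-1 blocks ALK2, a BMP receptor. The study describes Vactosertib as blocking both ALK5 and ALK2, and it is counted with the ALK5 inhibitors below. The last group of this table was 4F WT tail tip fibroblasts with the treatment label TGFB, from females of 22 weeks that carry OCT4-GFP and the 4FJ reprogramming cassette, and no untreated control for it was in the same table. The reprogramming table held 36 libraries of 12 groups, all tail tip fibroblasts. They came from 4F WT females of 22 weeks (with OCT4-GFP) and from 4F D/KO males of 8 weeks, sampled at day 0, day 2 and day 4 of doxycycline at 2 µg/ml, which induces Oct4, Sox2, Klf4 and c-Myc in both lines. Each day was sampled with and without VC, which is 50 µg/ml ascorbic acid with 3 µM CHIR. All groups of the inhibitor table were female. In it, WT and D/KO fibroblasts differed in genotype, age and line of origin together, and WT fibroblasts and the 4F WT fibroblasts labelled TGFB in age, line, transgenes and treatment. The lines of the reprogramming table differed in genotype, sex, age and line together. The parts of these factors cannot be told apart in a comparison between lines. The 3 libraries of a group appeared to be separate cultures or extractions of 1 line, and the p-values then measure the spread between those.

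Total counts per library ran from 17102639 to 30599138 in the inhibitor table and from 16538374 to 18484951 in the reprogramming table. Levels are given as CPM, counts scaled to 1000000 per library after TMM scaling of the totals, which was done separately in each table, and levels of different genes are compared only as CPM per kilobase of exon. A difference was called when the adjusted p of edgeR's quasi-likelihood test, adjusted by Benjamini-Hochberg over all genes tested, was under 0.05. Of the 39 Hox genes, 31 passed the low-count filter in the inhibitor table and 34 in the reprogramming table. Ercc1 was counted in every group, at 20.3 to 20.9 CPM in D/KO and 13.3 to 21.7 CPM in WT tail tip, and its gene-level count does not tell the truncated allele from the whole one. In bulk RNA, fewer cells of a type and less RNA per cell cannot be told apart.

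On GRCm39, as the deposited tables place them, Hoxa held 11 genes on the minus strand of chromosome 6. Hoxb held 10 genes on the plus strand of chr11:96085142-96259082, Hoxc held 9 on the plus strand of chr15:102829538-102945278 and Hoxd held 9 on the plus strand of chr2:74498654-74595486. Of the 39 members, 16 share exon bases with another annotated gene, and for 9 of them (Hoxa2, Hoxa3, Hoxa9, Hoxc5, Hoxc10, Hoxd3, Hoxd4, Hoxd10 and Hoxd11) that gene is on the same strand, so that their counts are uncertain where reads were split. Strand use in the counting is not given in the sources used here, and Hoxa11 overlaps its antisense partner Hoxa11os over 35% of its exon bases. No pair of members shared a run of 150 bases, the read length.

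The results turn on the genes numbered 13 at the tail end of each cluster. Their homeoboxes are shown to let the reader see how alike, yet separable by reads, these paralogs are. Each is the 180-base stretch that encodes the homeodomain, on GRCm39, in the last coding exon (2 of 2): Hoxa13 at chr6:52235908-52236087 on the minus strand, Hoxb13 at chr11:96086846-96087025, Hoxc13 at chr15:102835645-102835824 and Hoxd13 at chr2:74500274-74500453, all on the plus strand. Capitals mark bases that differ from Hoxb13, of which there were 56 in Hoxa13, 47 in Hoxc13 and 59 in Hoxd13.
Hoxa13: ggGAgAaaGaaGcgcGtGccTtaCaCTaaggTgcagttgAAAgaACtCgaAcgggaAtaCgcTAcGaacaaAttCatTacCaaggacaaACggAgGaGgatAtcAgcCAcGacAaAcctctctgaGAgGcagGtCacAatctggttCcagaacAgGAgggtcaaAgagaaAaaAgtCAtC
Hoxb13: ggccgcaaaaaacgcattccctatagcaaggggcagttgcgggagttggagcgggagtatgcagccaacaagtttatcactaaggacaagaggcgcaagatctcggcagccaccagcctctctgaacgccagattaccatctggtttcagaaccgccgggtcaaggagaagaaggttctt
Hoxc13: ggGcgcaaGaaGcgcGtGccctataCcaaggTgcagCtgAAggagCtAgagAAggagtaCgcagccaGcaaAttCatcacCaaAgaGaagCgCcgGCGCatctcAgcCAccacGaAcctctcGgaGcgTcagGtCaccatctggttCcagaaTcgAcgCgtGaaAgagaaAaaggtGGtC
Hoxd13: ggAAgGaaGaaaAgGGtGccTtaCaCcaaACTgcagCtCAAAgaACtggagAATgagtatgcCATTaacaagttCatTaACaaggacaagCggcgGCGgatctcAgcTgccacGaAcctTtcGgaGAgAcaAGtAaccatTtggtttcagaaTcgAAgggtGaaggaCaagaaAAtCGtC
Identity between pairs of these homeoboxes was 67.2 to 77.2%, and the longest identical run among the genes numbered 13 was 20 bases.

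Promoters are shown for Hoxa13 and Hoxd13, at opposite levels to Hoxd8 in several groups below. They are RefSeq promoter windows on GRCm38.p6, 250 bases before to 50 bases after the start, at chr6:52260831-52261130 on the minus strand for Hoxa13 and, on the plus strand, at chr2:74667975-74668274 for Hoxd13 and chr2:74704365-74704664 for Hoxd8. Capitals mark the dinucleotide CG, which reads the same on both strands.
Hoxa13 promoter: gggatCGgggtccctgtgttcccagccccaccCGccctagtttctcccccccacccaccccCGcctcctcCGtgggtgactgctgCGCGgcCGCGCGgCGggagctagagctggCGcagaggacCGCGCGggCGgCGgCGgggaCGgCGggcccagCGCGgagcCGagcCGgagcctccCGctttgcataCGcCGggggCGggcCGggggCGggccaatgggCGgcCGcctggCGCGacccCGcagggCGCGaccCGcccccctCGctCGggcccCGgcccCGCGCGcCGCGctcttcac
Hoxd13 promoter: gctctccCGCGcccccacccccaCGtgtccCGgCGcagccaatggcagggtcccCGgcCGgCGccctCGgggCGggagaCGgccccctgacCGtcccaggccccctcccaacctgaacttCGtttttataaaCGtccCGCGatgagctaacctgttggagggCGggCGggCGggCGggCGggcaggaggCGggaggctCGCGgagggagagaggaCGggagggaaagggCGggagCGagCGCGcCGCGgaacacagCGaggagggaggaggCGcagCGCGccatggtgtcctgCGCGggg
Hoxd8 promoter: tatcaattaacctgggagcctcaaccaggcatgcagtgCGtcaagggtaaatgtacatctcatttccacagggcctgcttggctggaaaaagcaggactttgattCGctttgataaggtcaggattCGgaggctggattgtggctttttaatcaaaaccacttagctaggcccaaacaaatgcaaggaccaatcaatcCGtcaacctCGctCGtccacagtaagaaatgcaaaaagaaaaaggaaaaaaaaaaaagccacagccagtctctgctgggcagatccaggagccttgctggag
The Hoxa13 window held 45 CG, a number reached by 1.93% of 32851 mouse promoter windows of the same length. The Hoxd13 window held 37 (reached by 5.58%) and the Hoxd8 window held 6 (reached by 56.4%). Over the 24 windows of the 22 Hox genes that the table lists the median was 14.5 CG, against 7 over all windows.

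The Hox genes separated the 20 groups into those labelled WT tail tip and WT skin on one side and all D/KO, 4F D/KO and 4F WT tail tip groups on the other. WT tail tip fibroblasts had almost no Hoxa13 or Hoxb13 and high Hoxc8 and Hoxc6, as WT skin fibroblasts had, whereas every other tail tip group had high Hoxb13, Hoxc12 and Hoxc13. The libraries labelled WT tail tip thus lacked posterior members that all other groups of the same labelled site carried, and they are named by their label throughout. Whether the labelled site of these libraries is right was not tested, and site too cannot be told apart from genotype, age and line in their comparisons with D/KO and 4F WT, nor taken as given in that with WT skin. Of the summed Hox level (CPM per kilobase over the 39 genes), posterior members made up 20.9 to 23.4% in the WT tail tip libraries and 28.9 to 36.5% in the WT skin libraries, against 85.9 to 86.1% in D/KO. The genes numbered 13 alone made up 0.167 to 0.256% in WT tail tip, 0.612 to 0.951% in WT skin and 40.5 to 44.1% in D/KO. Posterior members made up 80.2 to 82.0% in the 4F WT libraries labelled TGFB, 75.2 to 88.7% over the 4F D/KO libraries of the reprogramming table and 85.4 to 93.0% over its 4F WT libraries.

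**Figure D1:**
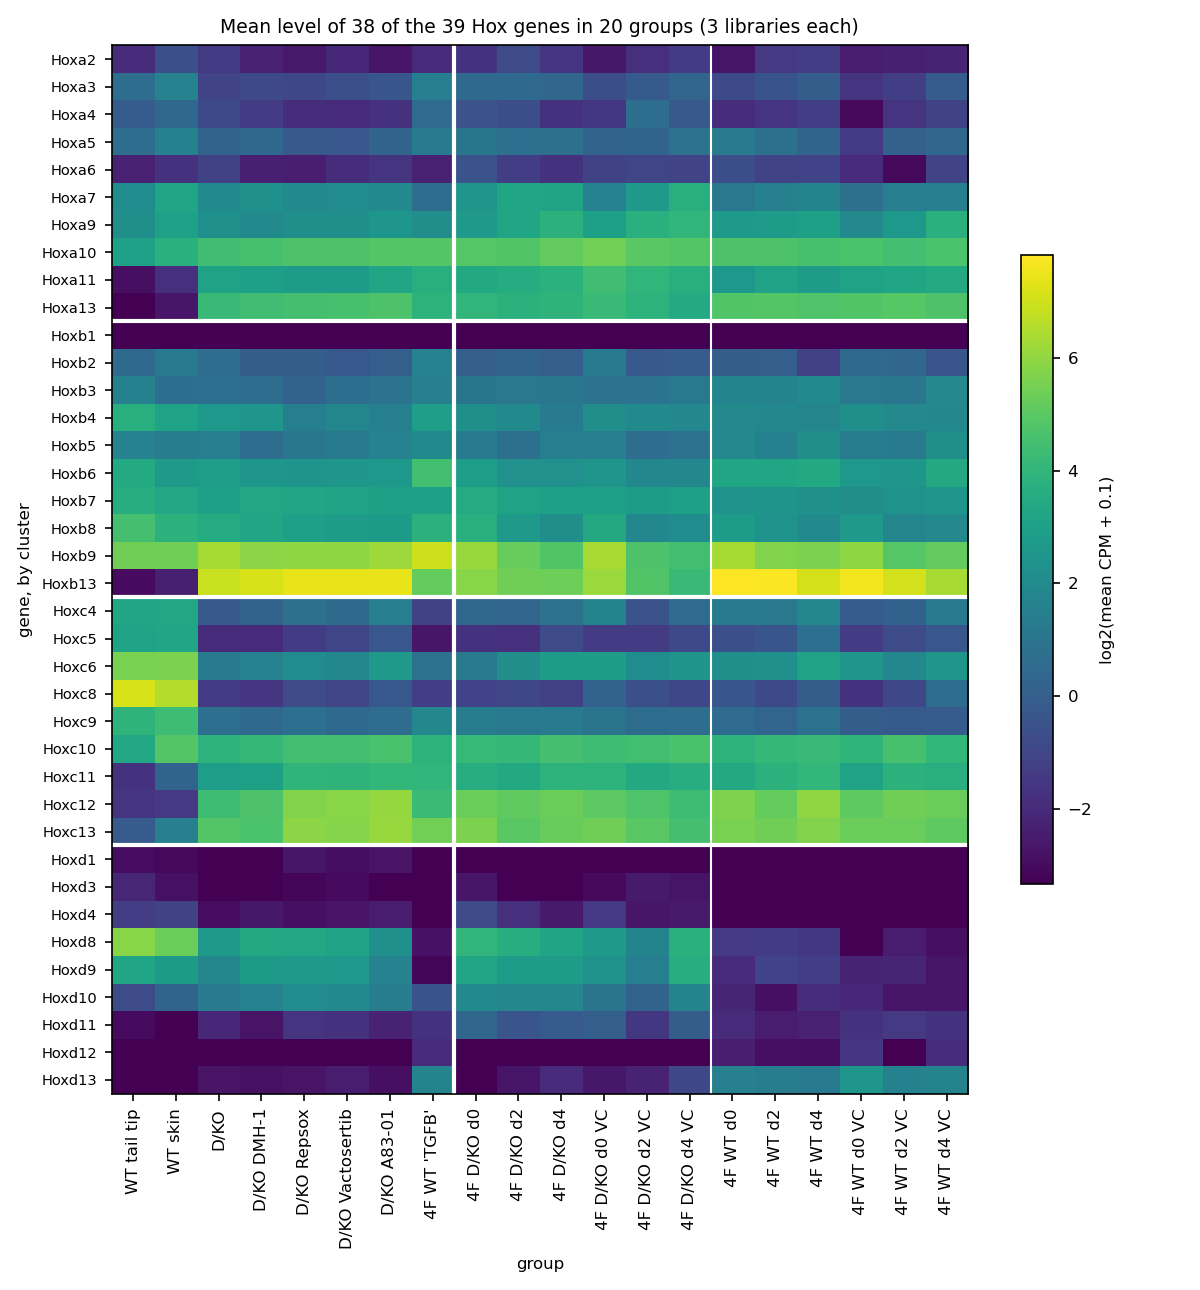
Level of 38 of the 39 Hox genes (rows, by cluster and paralog number) in the 20 groups (columns), as log2 of the mean CPM of 3 libraries plus 0.1, with CPM scaled separately in each table. WT tail tip and WT skin share a high block at Hoxc4 to Hoxc9 and Hoxd8 and are low at Hoxa13 and Hoxb13, and the other 18 groups are high at Hoxb13 and low at Hoxc8.

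The leading members of each group changed with the same split. In WT tail tip the highest was Hoxc8, a central member, at 49.8 ± 5.19 CPM per kilobase (SD, n = 3), followed by Hoxd8 at 20.7 ± 2.35. Hoxc8 also led in WT skin, at 32.2 ± 7.15 CPM per kilobase. In D/KO the highest was Hoxb13, the most posterior member of its cluster, at 53.3 ± 4.92 CPM per kilobase. In the reprogramming table at day 0 without VC, Hoxc12 led in 4F D/KO at 38.7 CPM per kilobase and Hoxb13 led in 4F WT at 102 ± 5.52, and in the 4F WT libraries labelled TGFB Hoxb9 led at 47.9. Across the 39 members, Spearman's rho between the group means (CPM per kilobase) was 0.97 for WT tail tip with WT skin, and it was 0.157 to 0.470 for either of these with any other group. 4F D/KO with D/KO gave 0.947 to 0.989. These coefficients describe 39 genes that share each group's libraries and their own lengths.

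Among the genes numbered 13, Hoxa13 (ENSMUSG00000038203, chr6:52234674-52237788) was at 0, 0 and 0 CPM in the 3 WT tail tip libraries and 0.179, 0 and 0 in WT skin. It was at 18.4, 19.2 and 16.5 CPM in D/KO and 15.1, 14.3 and 14.5 in the 4F WT libraries labelled TGFB. All libraries of the latter groups were far above all 6 of the former. Hoxb13 (ENSMUSG00000049604, chr11:96085142-96088273) was at 0.0745, 0 and 0 CPM in WT tail tip, 0.223, 0 and 0.0593 in WT skin, 129, 108 and 115 in D/KO and 33.5, 37.9 and 38.4 in the 4F WT libraries labelled TGFB. Hoxc13 (ENSMUSG00000001655, chr15:102829538-102837249), a gene known for its role in hair and nail, was present at low level in both WT groups, at 1.01, 0.620 and 0.823 CPM in tail tip and 2.73, 3.40 and 2.14 in skin, against 30.5, 26.7 and 28.0 in D/KO. The groups did not overlap, with skin between WT tail tip and D/KO. Hoxd13 (ENSMUSG00000001819, chr2:74498654-74501943), used in distal limb and genital tubercle, was at 0 in all 6 WT libraries and at 0.0426, 0.0488 and 0.0590 CPM in D/KO. The 4F WT libraries labelled TGFB had it at 2.85, 3.78 and 2.70 CPM, above all of these.

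The central members of cluster c and Hoxd8 ran the other way, while the other tested central members overlapped between the WT libraries and the rest. Hoxc8 (ENSMUSG00000001657, chr15:102899039-102902543) was at 149, 124 and 150 CPM in WT tail tip and 115, 81.3 and 77.9 in WT skin, against 0.298, 0.341 and 0.177 in D/KO and 0.263, 0.599 and 0.0917 in the 4F WT libraries labelled TGFB. Hoxd8 (ENSMUSG00000027102, chr2:74534959-74538277) was at 61.1, 49.4 and 59.9 CPM in WT tail tip and 55.9, 30.5 and 31.9 in WT skin, against 7.28, 6.14 and 5.37 in D/KO. It was at 0, 0.0921 and 0.0458 CPM in the 4F WT libraries labelled TGFB, so that the D/KO libraries lay between. Over the whole inhibitor table, the 6 WT tail tip and skin libraries did not overlap with the other 18 for 14 of the 39 members, all among the 31 tested, where 4.68% of all 15652 genes tested did not overlap. In the WT libraries 8 were lower (2.01% of all genes; Hoxa10, Hoxa11, Hoxa13, Hoxb9, Hoxb13, Hoxc11, Hoxc12 and Hoxc13), all posterior, and 6 were higher (2.68%; Hoxc4, Hoxc5, Hoxc6, Hoxc8, Hoxc9 and Hoxd8), of which Hoxc9 alone is posterior. This is a description of libraries grouped by their labels, since the 18 hold several genotypes and treatments.

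**Figure D2:**
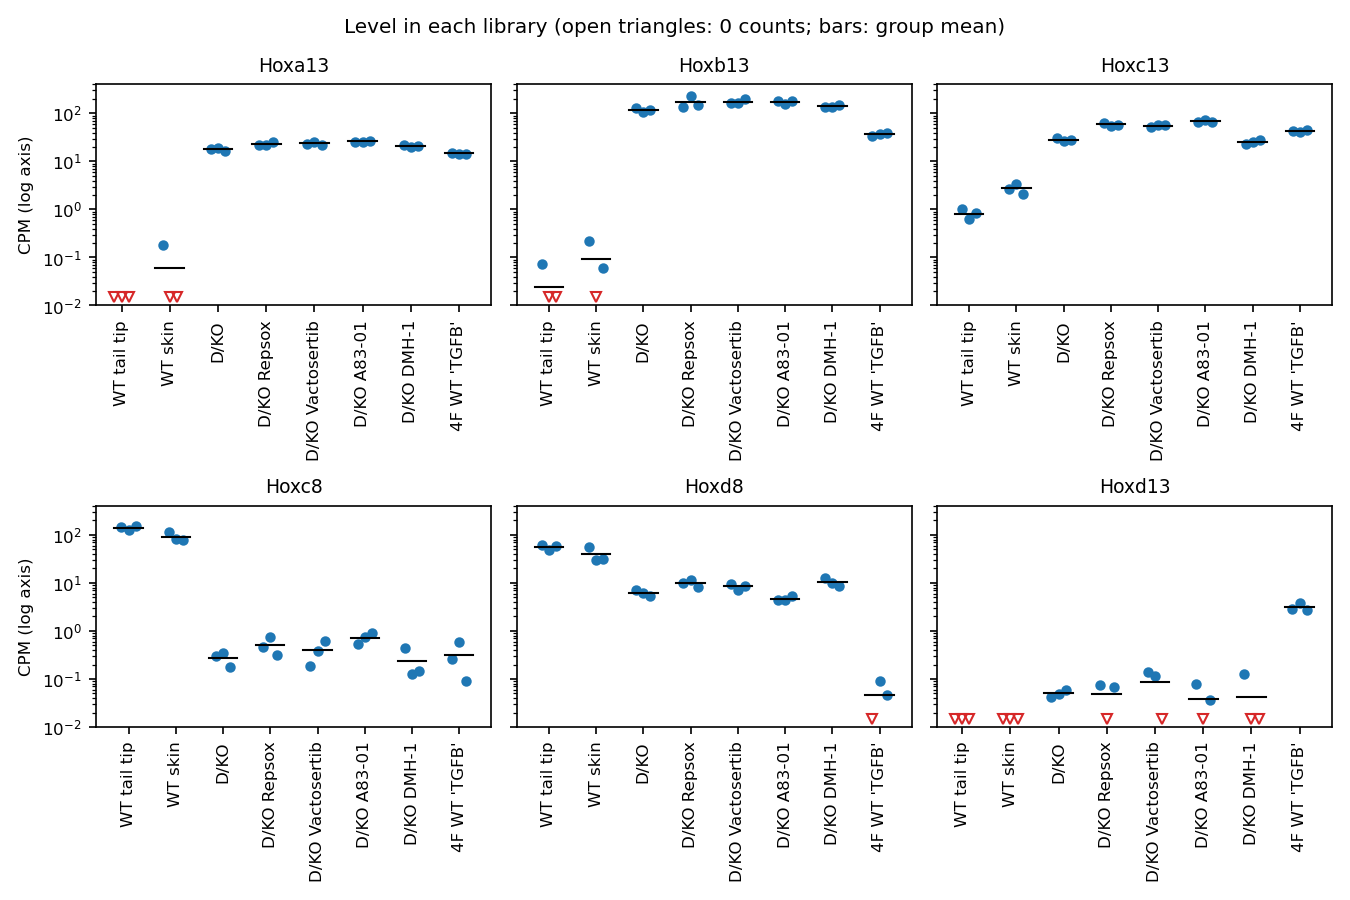
CPM in each library (points; open triangles are libraries with 0 counts) of 6 Hox genes in the 8 groups of the inhibitor table, on a log axis, with bars at the group mean. Hoxa13 and Hoxb13 are at most 0.223 CPM in the WT tail tip and WT skin libraries and at least 14.3 in all others, while Hoxc8 is at least 77.9 in the former and at most 0.887 in the latter.

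Compared with WT tail tip, D/KO tail tip had 22 of 31 tested members called (34.6% of all 15652 genes), with 10 higher (17.9% of all genes) and 12 lower (16.6%). Of the 14 tested posterior members 10 were higher and 2 lower. Those in paralog groups 10 to 13 were higher in 9 of 10 cases, and of the 4 in group 9 Hoxb9 was higher, Hoxc9 and Hoxd9 were lower (by -3.22 and -1.43 on the log2 scale) and Hoxa9 was not called (0.06). Hoxa13 was at least 465-fold higher, counting the WT group at the floor of 3 counts over its libraries. Hoxb13 had 2 counts over the WT tail tip libraries, and its ratio was 4553 (95% interval of the counts 1260 to 37600, counting error only). Hoxc13 rose by 5.11 ± 0.17 on the log2 scale (SE; adjusted p = 3.7e-15, edgeR), Hoxc12 by 6.42 ± 0.49 and Hoxc11 by 5.12 ± 0.32. Among central members, 8 of 13 tested were lower and 0 higher. Hoxc8 fell by 8.96 ± 0.41 on the log2 scale (adjusted p = 5.3e-13, edgeR), Hoxc6 fell by 4.40 ± 0.14 and Hoxd8 fell by 3.18 ± 0.24. In every fit that left out 1 of the 6 libraries, 20 of the 22 kept their call, and the other 2, Hoxb6 among them, lost it in at least 1 (adjusted p up to 0.16). Markers of other cells differed between these groups too. All 3 endothelial markers were higher in D/KO (summed level 223 to 271 CPM against 24.6 to 37.7 in WT tail tip), as were 2 of 3 tested Schwann cell markers (6.61 to 9.54 against 2.26 to 2.61 CPM) and Des (summed muscle level 10.2 to 12.6 against 2.09 to 3.76 CPM). All 3 tested cartilage markers were lower in D/KO (summed level 61.3 to 73.0 against 138 to 144 CPM). So were the melanocyte marker Pmel (summed level 1.23 to 1.76 against 3.58 to 4.38 CPM) and the keratinocyte marker Trp63 (summed level 0.170 to 0.826 against 11.1 to 13.7 CPM). Of 3 leukocyte markers 1, Adgre1, was higher (summed level 3.66 to 4.66 against 2.91 to 4.65 CPM). Their part in the Hox differences was not tested, and in the 4F WT libraries labelled TGFB, described next, the endothelial sum was at 0.461 to 1.24 CPM.

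The 4F WT libraries labelled TGFB, compared with the same WT tail tip libraries, had 25 of 31 called, 14 higher and 11 lower (62.2% of all genes called, 28.6% higher and 33.6% lower, where the median difference of all genes was -0.106 on the log2 scale). Hoxa13 was at least 376-fold higher and Hoxd13 at least 79.7-fold higher, at that floor. Hoxb13 had a ratio of 1406 (389 to 11620, counting error only). In the other direction, WT tail tip exceeded these libraries with a ratio of 1256 (429 to 6091) for Hoxd8 and 611 (109 to 24170) for Hoxd9. Hoxc8 fell by 8.77 on the log2 scale, and Hoxa3, Hoxa5 and Hoxb7 lost their call when 1 library was left out (adjusted p up to 0.11). Both comparisons share the WT tail tip libraries. Mean levels of other cell markers in the 4F WT libraries and WT tail tip were 14.7 and 3.17 CPM for Des, 1.46 and 0 for Adgre1 and 0.839 and 0 for Ptprc. In the other direction they were 0.757 and 3.98 CPM for Pmel, 0.169 and 11.9 for Trp63, 24.3 and 78.3 for Sox9 and 0.621 and 58.5 for Comp. Their part in the Hox differences was not tested.

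Between WT skin and WT tail tip, of the same genotype, sex and age, differences were smaller and ran along cluster a. The skin libraries are titled wt-2 and the tail tip libraries wt, so that site and a possible second WT line or animal cannot be told apart. Most members of cluster a were higher in skin, Hoxc10, Hoxc11 and Hoxc13 were higher in skin, and Hoxb4, Hoxb6 and Hoxb8 were lower. In all, 15 of 31 members were called, 12 higher and 3 lower, where 34.2% of all genes were called (18.1% higher and 16.1% lower). Over the 31, the median difference was 0.43 on the log2 scale, against 0.03 over all genes. By position, 8 of 14 tested posterior members were higher in skin and 0 lower, against 2 higher and 3 lower of 13 central and 2 higher of 4 anterior members. In cluster a 8 of 9 tested members were higher, in cluster b 3 of 9 were lower, in cluster c 3 of 9 were higher and in cluster d 1 of 4 was higher.

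Hoxc10, a lumbosacral and hindlimb gene, was at 9.54, 10.5 and 10.8 CPM in WT tail tip and 29.0, 27.9 and 28.8 in WT skin. The groups did not overlap, and the difference was 1.48 ± 0.12 on the log2 scale (adjusted p = 9e-09, edgeR). Hoxc11 was at 0.373, 0.0387 and 0.206 CPM in tail tip and 1.52, 0.977 and 0.831 in skin, a difference of 2.40 ± 0.38 (adjusted p = 3.5e-05). Hoxc13, whose levels are given above, was higher in skin by 1.76 ± 0.18 (adjusted p = 1.2e-07). Both were low in both groups beside the other tail tip groups. Hoxa7 was at 4.92, 2.87 and 4.78 CPM in tail tip and 11.3, 7.94 and 8.96 in skin, a difference of 1.17 ± 0.23 (adjusted p = 0.00036). Hoxa9 was at 4.25, 4.76 and 4.61 CPM in tail tip and 9.65, 8.11 and 7.18 in skin, a difference of 0.87 ± 0.18 (adjusted p = 0.00076). The groups did not overlap for either gene.

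The members lower in skin were all in cluster b. Hoxb8 was at 23.1, 19.0 and 26.8 CPM in tail tip and 13, 15.6 and 14.2 in skin, and it fell by 0.69 ± 0.14 on the log2 scale (adjusted p = 0.00047, edgeR). Hoxb6 was at 11.4, 8.21 and 13.4 CPM against 7.46, 5.56 and 5.52, and fell by 0.83 ± 0.19 (adjusted p = 0.0016). The groups did not overlap for either gene. Both calls were lost when only these groups were fitted (adjusted p = 0.050 and 0.058), a fit that called 8 of the 31. Hoxa13 and Hoxa11 were called on few counts. Hoxa13 had 4 counts over the skin libraries, all in library 1, and 0 in tail tip, and the call was absent without that library. Hoxa11 had 11 counts against 3, a ratio of 4.49 (1.19 to 25.1, counting error only). With Hoxa3, Hoxb4 and Hoxd10 they made up the 5 calls that some fit without 1 library lost, and the other 10 stayed called in all 6 such fits. Among the members with the highest levels in both WT groups, Hoxc8, Hoxd8, Hoxc6 and Hoxb9 were not called. Hoxc8 differed by -0.63 on the log2 scale (adjusted p = 0.063), Hoxd8 by -0.52 (0.067), Hoxc6 by 0.01 and Hoxb9 by 0.03.

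**Figure D3:**
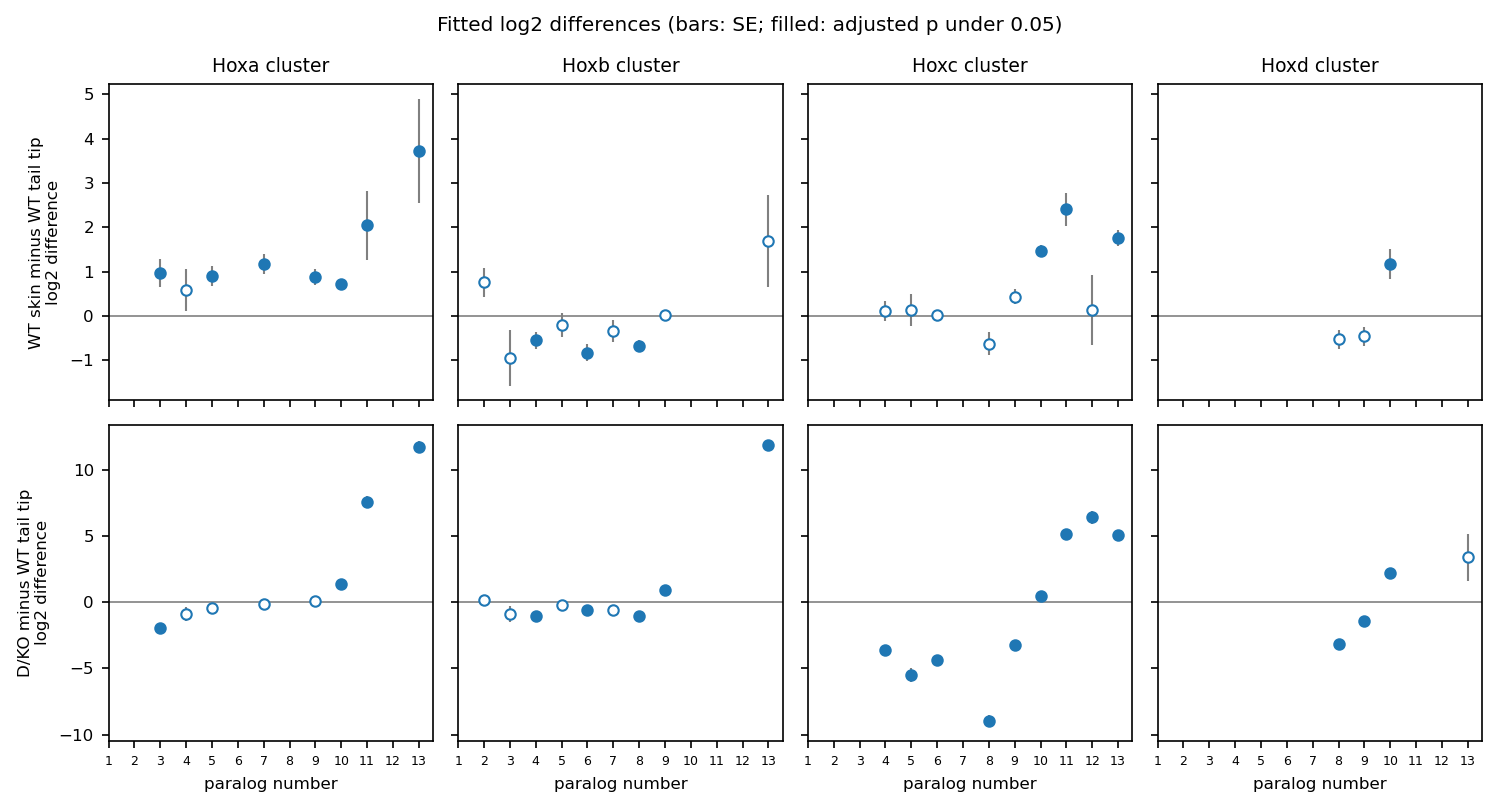
Difference on the log2 scale with its SE (y axis) against paralog number (x axis) in each cluster, for WT skin against WT tail tip and for D/KO against WT tail tip, with filled points at adjusted p under 0.05. Skin is higher along most of cluster a, and D/KO is higher at paralogs 10 to 13 and lower at paralogs 4 to 9 of cluster c. Hoxd13 is left out of the skin row, since both groups are at 0, and points of genes near 0 counts in WT tail tip depend on the prior count.

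The same WT skin libraries differed from the other tail tip groups at the members that set WT tail tip apart from them. Against D/KO, 23 of 31 members were called, 14 higher in skin and 9 lower (26.6% of all genes called, 14.1% higher and 12.5% lower). Hoxb13 fell by 10.19 ± 0.38 on the log2 scale in skin, Hoxc12 fell by 6.29 ± 0.50 and Hoxc13 fell by 3.35 ± 0.15, and Hoxc8 was higher by 8.33 ± 0.41. The calls of Hoxa4 and Hoxd10 were lost when 1 library was left out (adjusted p up to 0.125). Against the 4F WT libraries labelled TGFB, 20 were called, 10 in each direction (55.4% of all genes called, 31% higher and 24.4% lower, where the median difference of all genes was 0.104), and none of the 20 calls was lost when 1 library was left out. Skin exceeded those libraries with a ratio of 883 (302 to 4286) for Hoxd8, and Hoxd13 was at least 65.0-fold higher in them than in skin. The contrast between skin and a tail tip group thus had 12 members higher and 3 lower, 14 and 9, or 10 and 10, according to which tail tip group was used, and these comparisons share the skin libraries.

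Skin library 1 stood apart from the other 2 at single members. Hoxb3 was at 0.0447 CPM in it and at 1.70 and 2.91 CPM in the others, and Hoxd8, at 55.9 CPM, was at the tail tip level. Summed endothelial markers were at 105 to 200 CPM in skin and 24.6 to 37.7 in WT tail tip, and summed skeletal muscle markers at 56.0 to 83.5 and 2.09 to 3.76, with Myf5 and Pax7 at 0. Summed keratinocyte markers were lower in skin (1.70 to 1.95 CPM) than in tail tip (11.1 to 13.7). Trp63 carried this sum (means 1.69 and 11.9 CPM), and the other listed keratinocyte markers had means of at most 0.122 CPM in either group. Summed Schwann cell markers were at 10.1 to 11.3 CPM in skin and 2.26 to 2.61 in tail tip, summed melanocyte markers at 1.52 to 2.29 and 3.58 to 4.38, with Dct and Tyr at 0 in both. Summed leukocyte markers were at 12.4 to 14.8 CPM in skin and 2.91 to 4.65 in tail tip. Csf1r carried this sum (means 13.1 and 3.77 CPM), with Ptprc and Cd3e at 0 in both groups and Adgre1 at 0.0989 and 0. Summed cartilage markers were at 64.4 to 86.5 CPM in skin and 138 to 144 in tail tip. All 9 fibroblast markers were detected in every group, and their sum was at 82040 to 157500 CPM in skin, 89430 to 91260 in WT tail tip and 79150 to 84440 in D/KO. The part of these other cells in the Hox differences was not tested.

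Genes that act with the Hox genes also differed between the WT groups. Of the 9 tested TALE cofactors, the Pbx, Meis and Pknox proteins that bind DNA together with Hox proteins, 5 were lower in skin and 0 higher, among them Pbx3 (-1.07 on the log2 scale) and Meis2 (-1.01). Of 24 other positional transcription factors, 6 were higher, among them Alx4 (4.65 ± 0.67) and Foxd1 (3.02 ± 0.59), and 6 were lower. In this comparison 18.1% of all genes were called higher and 16.1% lower. D/KO against WT tail tip had 7 of the 24 higher and 10 lower, and 5 of 9 TALE cofactors lower and 0 higher. There 17.9% of all genes were called higher and 16.6% lower. The limb gene Tbx4 was at 0 in the WT tail tip libraries and 2.71 to 2.83 CPM in D/KO. Of 8 tested non-coding genes of the Hox loci, 3 were higher in D/KO and 2 lower. Hotair, an RNA transcribed between Hoxc11 and Hoxc12, was near 0 in WT tail tip and was called higher, as was Hoxa11os, the antisense partner of Hoxa11.

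Between the reprogrammable lines at day 0 without VC, 4F D/KO and 4F WT differed most at cluster d and at Hoxb13. Of 34 tested members 15 were called, 10 higher in 4F D/KO and 5 lower, where 43.2% of all genes were called (22.1% higher and 21.1% lower). All 5 tested members of cluster d were called. Hoxd8 was at 18.5, 11.4 and 17.5 CPM in 4F D/KO and 0.0552, 0.483 and 0.255 in 4F WT, a difference of 5.85 ± 0.40 on the log2 scale (adjusted p = 4.7e-14, edgeR). Hoxd9 was higher by 5.81 ± 0.42, Hoxd10 by 4.87 ± 0.54 and Hoxd11 by 2.84 ± 0.87. Hoxd13, at the other end of the cluster, was at 0 in all 3 4F D/KO libraries and 3.37, 2.47 and 2.55 CPM in 4F WT, which was at least 46.0-fold higher.

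Hoxb13 was at 61.7, 61.3 and 48.9 CPM in 4F D/KO and 225, 237 and 213 in 4F WT, and fell by 1.97 ± 0.12 on the log2 scale in 4F D/KO (adjusted p = 1.0e-15, edgeR). Hoxa13 was at 16.6, 15.7 and 15.4 CPM against 25.8, 28.3 and 29.4, and fell by 0.81 ± 0.12 (adjusted p = 5.3e-07). The groups did not overlap for either. Hoxc13 was at 47.8, 49.3 and 48.4 CPM against 43.9, 48.3 and 50.1, with a difference of 0.03 (adjusted p = 0.841). The genes numbered 13 thus differed unequally between the lines. The calls of Hoxa3, Hoxa4 and Hoxc12 were lost when 1 library was left out (adjusted p up to 0.21).

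Some of these line differences were also seen across days and media. Over all 18 libraries of each line, 5 members, all among the 34 tested, did not overlap, where 2.7% of all 15832 genes tested did not. Of these Hoxd8 (2.69 to 18.5 CPM in 4F D/KO and 0 to 0.485 in 4F WT), Hoxd9 (2.14 to 14.7 and 0 to 0.538) and Hoxd10 (0.829 to 5.66 and 0 to 0.246) were higher in 4F D/KO (1.76% of all genes). Hoxa13 (10.97 to 19.7 and 22.5 to 34.0) and Hoxd13 (0 to 0.835 and 1.96 to 7.12) were lower (0.935% of all genes). Between D/KO and the 4F WT libraries labelled TGFB of the inhibitor table, Hoxd8 and Hoxd13 had the same order as between these lines, and Hoxa13 and Hoxb13 had the opposite order, with D/KO above and no overlap. Summed endothelial markers were at 484 to 567 CPM in 4F D/KO at day 0 and at most 1.54 CPM in any 4F WT library. Of the other marker lists at day 0, Des (summed muscle level 20.8 to 34.3 CPM in 4F D/KO and 1.82 to 3.01 in 4F WT), 2 of 3 cartilage markers (Col2a1 and Comp) and 1 of 3 Schwann cell markers (Sox10) were higher in 4F D/KO, and all 3 tested leukocyte markers (3.54 to 7.78 and 12.7 to 29.4 CPM) and 1 of 4 keratinocyte markers (Trp63) were lower. Of 9 fibroblast markers 4 were higher and 3 lower. Their part in these differences was not tested. Of the TALE cofactors 0 were higher and 5 lower in 4F D/KO at day 0. Of 24 other positional transcription factors 6 were higher and 12 lower, among them Tbx4 by -1.87 on the log2 scale. Of all genes 22.1% were higher and 21.1% lower there.

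With the ALK5 inhibitors, the posterior end of cluster c was higher in D/KO fibroblasts. Hoxc6, Hoxc10, Hoxc11, Hoxc12 and Hoxc13 were higher with each of Repsox, Vactosertib and A83-01, and Hoxb4 and Hoxb8 were lower with each. With Repsox 12 of 31 members were called (20.7% of all genes), 9 higher (11% of all genes) and 3 lower (9.73%), and 7 were called when only its groups were fitted. With Vactosertib 10 were called (18.1%), 7 higher (9.37%) and 3 lower (8.7%). With A83-01 12 were called (27.5%), 10 higher (13.6%) and 2 lower (13.9%). Cluster c had 6, 5 and 7 of its 9 tested members higher. The 3 comparisons share the same D/KO libraries and differ in dose, and they are given side by side.

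Hoxc12 was at 14.7, 20.6 and 26.1 CPM in D/KO, 67.0, 24.6 and 65.8 with Repsox, 51.7, 72.2 and 48.4 with Vactosertib and 48.5, 80.3 and 72.1 with A83-01. Repsox library 2 lay within the D/KO range and all other ALK5 inhibitor libraries lay above it. The differences were 1.36, 1.49 and 1.71 on the log2 scale (adjusted p = 0.0041, 0.0023 and 0.00037, edgeR), and that of Repsox was not called when only its groups were fitted (adjusted p = 0.061). Hoxc13 was at 30.5, 26.7 and 28.0 CPM in D/KO, 64.4, 54.6 and 58.6 with Repsox, 51.8, 56.2 and 58.4 with Vactosertib and 65.2, 71.5 and 66.9 with A83-01. All treated libraries were above all D/KO libraries, with differences of 1.06 ± 0.13, 0.96 ± 0.13 and 1.26 ± 0.13. Hoxc11 differed by 1.08, 1.02 and 1.14 and Hoxc10 by 0.56, 0.58 and 0.75. Among members that fell, Hoxb4, a central member of cluster b, was at 5.96, 7.02 and 5.13 CPM in D/KO and 3.46, 1.83 and 2.90 with Repsox, 3.18, 3.78 and 2.98 with Vactosertib and 3.04, 2.56 and 2.51 with A83-01. These groups did not overlap with D/KO, and Hoxb4 fell by 1.14 ± 0.21, 0.86 ± 0.21 and 1.16 ± 0.21 on the log2 scale. Hoxb8 fell by 0.57, 0.69 and 0.77.

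**Figure D4:**
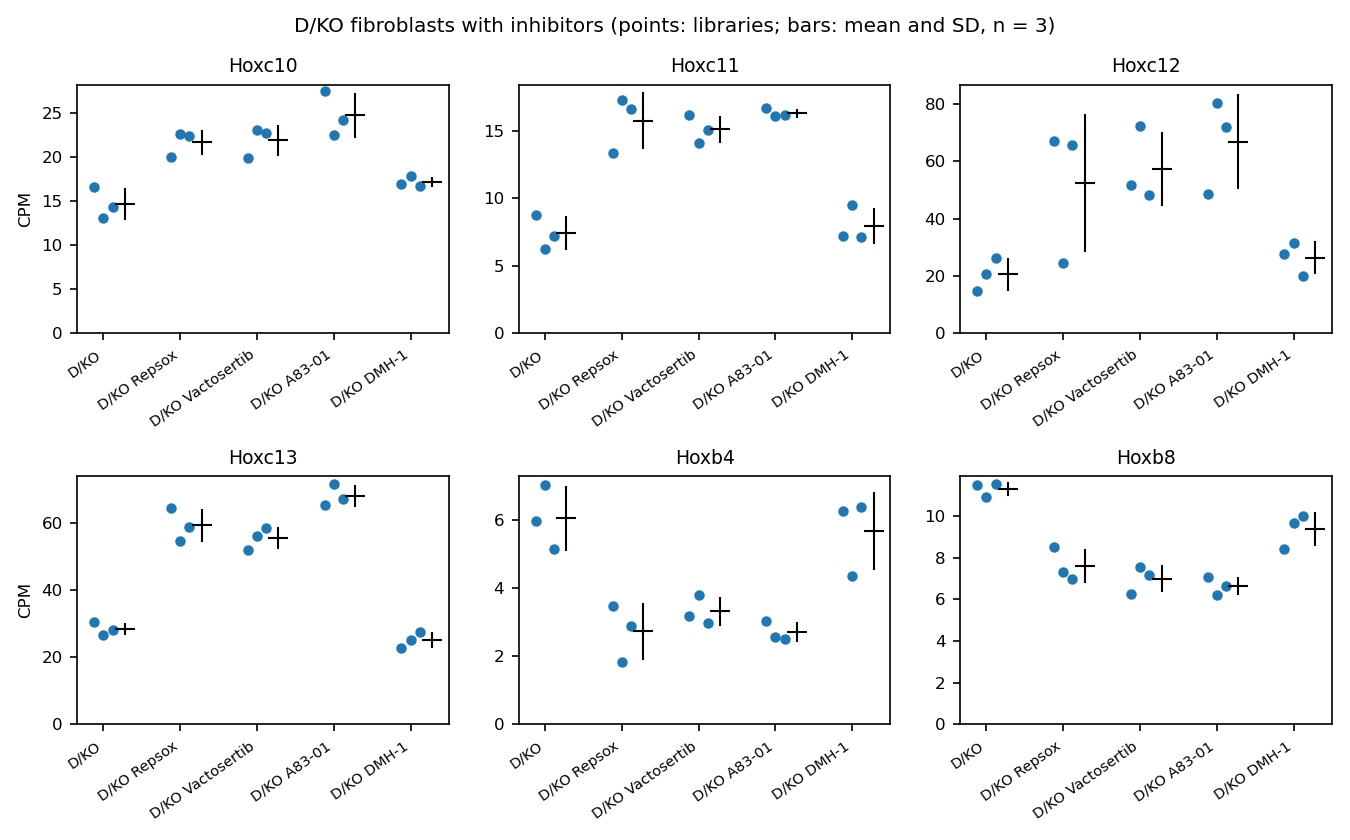
CPM (y axis) of Hoxc10, Hoxc11, Hoxc12, Hoxc13, Hoxb4 and Hoxb8 in D/KO fibroblasts without inhibitor and with each of 4 inhibitors; points are libraries and bars the mean and SD (n = 3). Hoxc13 is at 51.8 to 71.5 CPM in all ALK5 inhibitor libraries and at 22.6 to 30.5 CPM without inhibitor and with DMH-1.

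With DMH-1 2 of 31 members were called (7.25% of all genes, 4.35% higher and 2.9% lower), Hoxd9 higher by 0.96 ± 0.23 and Hoxb9 lower by 0.44 ± 0.11 on the log2 scale, and each lost its call in some fit that left out 1 library (adjusted p up to 0.0768, with 0 called without D/KO library 2). Hoxc13 was at 22.6, 25.1 and 27.4 CPM with DMH-1, a difference from D/KO of -0.18, and Hoxc12 differed by 0.37, neither of them called. The difference between DMH-1 and the ALK5 inhibitors itself was not tested. Calls lost in some fit without 1 library were Hoxc4, Hoxd8, Hoxd9 and Hoxd10 with Repsox, Hoxa10, Hoxb9 and Hoxd9 with Vactosertib, and Hoxa13, Hoxb13 and Hoxc5 with A83-01 (adjusted p up to 0.173, 0.214 and 0.154). The largest called change of a member with any inhibitor was 1.98 on the log2 scale, in Hoxc5 with A83-01. Positional transcription factors outside the Hox clusters rose with each ALK5 inhibitor, 15, 16 and 17 of 24 and 0 lower, among them Twist1 (1.05, 1.10 and 1.10). Of all genes 11%, 9.37% and 13.6% were higher and 9.73%, 8.7% and 13.9% lower. Hotair was higher by 0.96, 1.37 and 1.34. The summed fibroblast markers were at 40590 to 52540 CPM with these inhibitors, below the 79150 to 84440 of D/KO. The sum is mostly collagen: with each of the 3 inhibitors 4 of 9 markers were lower (Col1a1, Col1a2, Col3a1 and Thy1), Dcn was higher (0.63, 0.53 and 0.90 on the log2 scale) and Vim, Pdgfra, Pdgfrb and Lum were not called. Endothelial markers were lower with A83-01 (3 of 3) and not called with the other ALK5 inhibitors, and of 3 Schwann cell markers 3, 2 and 3 were higher. With Repsox, Vactosertib and A83-01, the cartilage marker Sox9 differed by -2.03, -1.75 and -2.17 on the log2 scale, all called. Adgre1, 1 of 3 tested leukocyte markers and at 0.352 CPM in D/KO, differed by 2.71, 2.48 and 2.32, all called. The other leukocyte markers, Csf1r (0.27, -0.25 and -0.08) and Ptprc, were not called with any of the 3. Another cartilage marker, Comp, was higher with Repsox (0.65) and A83-01 (0.93) and not called with Vactosertib (0.49), and Des was lower with Vactosertib (-0.68) and A83-01 (-0.78). With DMH-1 mean levels were 14.6 CPM against 29.4 in D/KO for Sox9, 16.1 against 38.1 for Comp and 6.44 against 11.4 for Des. Sox10 was at 6.47 against 3.63 CPM, Pecam1 at 117 against 96.8 and Adgre1 at 0.336 against 0.352. The part of these markers in the Hox changes was not tested.

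During reprogramming, Hoxb9, Hoxb8 and Hoxb13 fell in most comparisons with day 0. Of the 9 tested members of cluster b, 4 to 6 were lower and 0 higher in each comparison of 4F D/KO, and 1 to 4 were lower in those of 4F WT, where 1 (Hoxb6, by 0.77 ± 0.20 on the log2 scale) was higher at day 4 with VC. In 4F D/KO against day 0 without VC, 7 of 34 tested members were called at day 2 (27.4% of all genes), 2 higher (14.3% of all genes) and 5 lower (13.2%), and the count was 4 without day 0 library 1 or day 2 library 2. At day 4 12 were called (37%), 4 higher (18.3%) and 8 lower (18.7%). With VC, against day 0 with VC, 16 were called at day 2 (47.4%), 3 higher (23.8%) and 13 lower (23.6%), and 17 at day 4 (54.1%), 6 higher (27.9%) and 11 lower (26.2%). In 4F WT 2 were called at day 2 (10.6%), 0 higher (6.26%) and 2 lower (4.3%), and 7 at day 4 (24.5%), 3 higher (11.7%) and 4 lower (12.8%). The first count was 4 without day 2 library 1 and 1 without day 0 library 1 or day 2 library 2, and the second was 4 without day 4 library 3. With VC 9 were called at day 2 (27.5%), 6 higher (13.8%) and 3 lower (13.7%), and 12 at day 4 (44.7%), 9 higher (22.7%) and 3 lower (22%). In each of the 8 comparisons, the share of the 34 tested members that was called was below the share of all genes.

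Hoxb9, a posterior member known from the thoracic trunk, was lower in all 8 of these comparisons. It was at 59.8, 70.0 and 77.3 CPM in 4F D/KO at day 0, 34.1, 39.9 and 38.0 at day 2 and 26.5, 24.7 and 30.4 at day 4, with no overlap between day 0 and later days. In 4F WT it was at 78.0, 80.1 and 77.6 CPM at day 0, 55.6, 56.5 and 43.3 at day 2 and 52.3, 47.5 and 47.1 at day 4. It fell by 1.34 ± 0.13 on the log2 scale at day 4 in 4F D/KO (adjusted p = 2.2e-10, edgeR) and by 0.68 ± 0.13 in 4F WT (adjusted p = 0.00014). With VC it fell by 1.93 ± 0.14 and 0.77 ± 0.13 at day 4.

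Hoxb8 and Hoxb13 were each lower in 7 of the 8. Hoxb13 was at 62.5, 85.4 and 65.0 CPM in 4F D/KO at day 0 with VC and 15, 19.6 and 20.2 at day 4 with VC, and fell by 1.96 ± 0.13 on the log2 scale (adjusted p = 1.3e-15, edgeR). In 4F WT with VC it went from 214, 178 and 190.1 CPM to 76.5, 81.4 and 88.0, and fell by 1.24 ± 0.12 (adjusted p = 7.4e-11). The lowest 4F WT library at day 4 was thus above all but 1 of the 4F D/KO libraries of any day, and Hoxb13 stayed far above its level in WT tail tip, although that level is from the other table. Hoxc13 fell in 4F D/KO, from 39.9, 45.4 and 42.8 CPM to 20.2, 20.1 and 28.9 at day 4 with VC (by 0.89 ± 0.11). In 4F WT it was at 40.9, 37.1 and 39.6 CPM and 33.0, 31.4 and 34.1, without a call. Hoxa13 fell with VC in 4F D/KO by 0.71 ± 0.12, from 16.1, 19.1 and 19.7 CPM to 11.2, 10.97 and 11.5, and was not called in 4F WT at any time (-0.10 to 0.12).

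**Figure D5:**
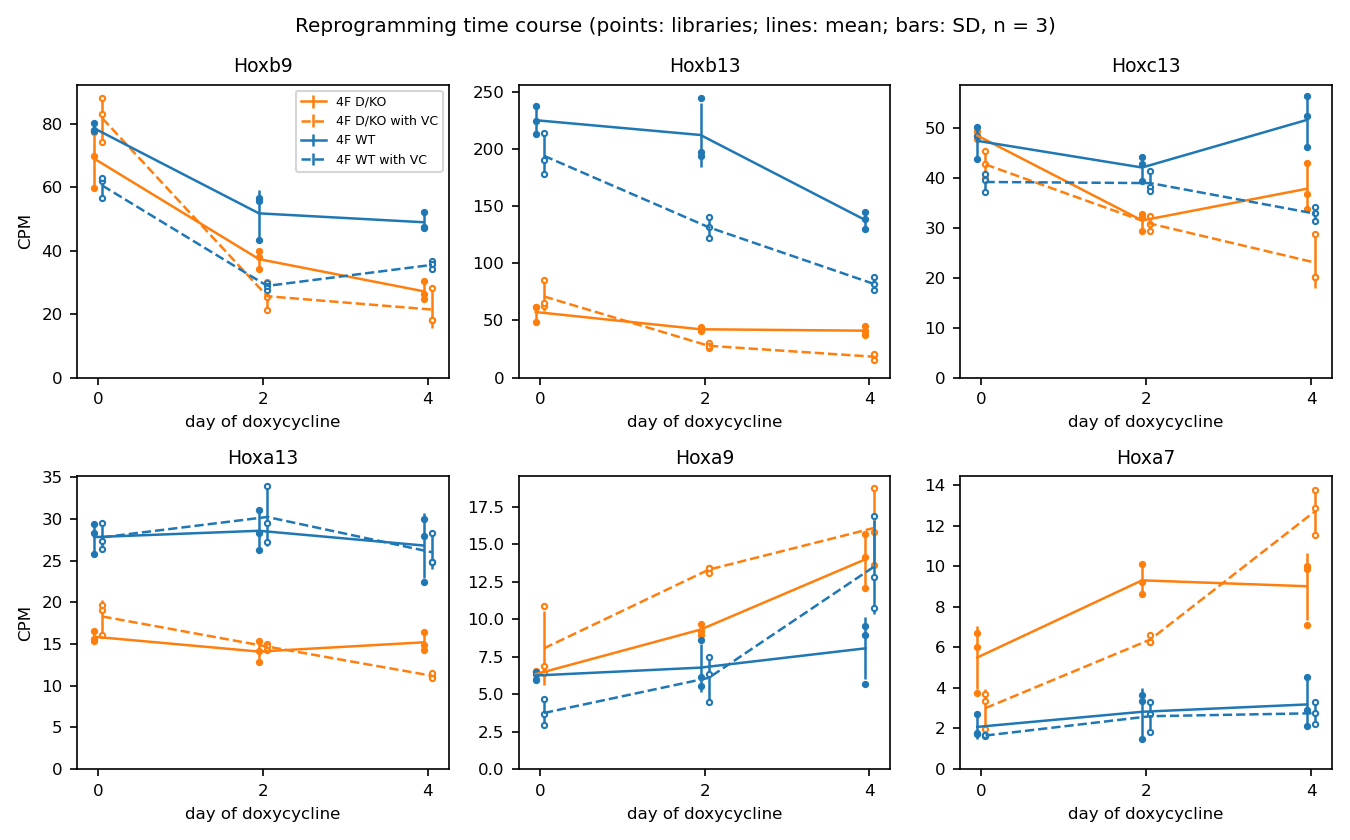
CPM (y axis) of 6 Hox genes at day 0, day 2 and day 4 of doxycycline (x axis) in 4F D/KO (orange) and 4F WT (blue), without VC (solid) and with VC (dashed); points are libraries and lines join the means. Hoxb9 is lower at day 2 and day 4 in every series, and Hoxb13 keeps the order of the lines at each day within each medium.

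Other members rose. Hoxa7, a central member, was higher in all 4 comparisons of 4F D/KO, from 3.37, 3.69 and 1.96 CPM at day 0 with VC to 12.8, 13.8 and 11.5 at day 4 with VC, by 2.08 ± 0.28 on the log2 scale (adjusted p = 6.2e-08, edgeR). Hoxa9 was higher in 5 of the 8, from 5.99, 6.45 and 6.54 CPM to 12.1, 14.2 and 15.7 in 4F D/KO at day 4 without VC (1.14 ± 0.21) and from 2.90, 4.67 and 3.65 to 10.7, 16.9 and 12.8 in 4F WT with VC (1.85 ± 0.22). Neither gene had overlapping values in the comparisons whose levels are given here. In 4F WT at day 2 with VC Hoxa9 values overlapped (4.45 to 7.48 CPM against 2.90 to 4.67 at day 0). Hoxc11 was higher in 3 of 4 comparisons of 4F WT. Hoxc6 was higher at day 4 without VC in 4F D/KO (1.55 ± 0.27) and in 4F WT (0.87 ± 0.25), the latter lost when 1 library was left out. It was lower at day 2 with VC in 4F D/KO (-0.78 ± 0.26). Over the 4 time comparisons of 4F D/KO 3 members were called in both directions, and over all 8 comparisons 5 were (Hoxb6, Hoxc4, Hoxc6, Hoxd8 and Hoxd9). In 4F D/KO Hoxd8 was lower at day 4 without VC (-0.83 ± 0.26, a call lost when 1 library was left out) and at day 2 with VC (-1.03 ± 0.30), and higher at day 4 with VC (1.06 ± 0.27). Several calls rested on few counts, such as Hoxa4 in 4F WT at day 4 with VC, with 19 counts over the libraries against 1, a ratio of 16.6 (2.64 to 689, counting error only), and Hoxd13 in 4F D/KO at day 4 with VC, with 24 counts against 3, a ratio of 6.16 (1.87 to 31.9).

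VC itself, compared with its absence at day 0, changed 9 members in 4F D/KO (26.1% of all genes called), 5 higher (12.1%) and 4 lower (14%). In 4F WT it changed 10 (29.4%), 2 higher (15.1%) and 8 lower (14.4%), and the count was 6 without day 0 library 3. In 4F D/KO Hoxc6 was higher by 1.55 ± 0.27 on the log2 scale, Hoxa11 by 0.99 ± 0.17 and Hoxa10 by 0.55 ± 0.14, and Hoxd8 fell by 1.30 ± 0.27. In 4F WT Hoxa5 fell by 3.00 ± 0.60 and Hoxc12 by 0.60 ± 0.13. Hoxd8 had 15 counts in 4F WT without VC and 0 with it, at least 4.19-fold lower. Markers of other cells also moved with VC in 4F D/KO, where all 3 endothelial markers were lower (Pecam1 by -1.49, Cdh5 by -1.43 and Kdr by -1.68 on the log2 scale; summed level 484 to 567 CPM without VC and 170 to 209 with it), as were 2 of 3 cartilage markers (Comp by -2.63, Sox9 by -1.98) and the muscle marker Des (-1.95), while 6 of 9 fibroblast markers were higher and 1 lower. Trp63 (3.59) and Pmel (1.44) were also higher with VC in 4F D/KO. In 4F WT 6 of 9 fibroblast markers and Des were higher and 2 of 3 cartilage markers lower. Their part in the Hox changes was not tested.

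The change from day 0 to day 4 itself differed between the lines for 4 members without VC (14.3% of all genes called), 1 more positive in 4F D/KO (7.27%) and 3 more negative (7.04%), and for 16 with VC (29.4%). With VC 2 of the 16 changed more positively (13.9% of all genes) and 14 more negatively (15.5%) in 4F D/KO, the latter with Hoxb9 (by -1.16 on the log2 scale), Hoxb13 (-0.71), Hoxa13 (-0.61) and Hoxc13 (-0.63) among them. Hoxa7 (1.35) and Hoxd13 changed more positively. In the fits that left out 1 of the 12 libraries, 9 of the 16 and 1 of the 4 kept their call throughout, and the count without VC was 1 or 2 without any of 7 of the 12. For the changes against day 0, calls that held in all 6 such fits were 4 of 7, 6 of 12, 12 of 16 and 13 of 17 in 4F D/KO (day 2, day 4, and both with VC), and 1 of 2, 4 of 7, 4 of 9 and 8 of 12 in 4F WT, with adjusted p of lost calls up to 0.286. Lost calls in 4F D/KO included Hoxa7 at day 2 and day 4 without VC, Hoxb6 in all 4 comparisons, Hoxc13 at day 4 without VC (without day 4 library 2) and Hoxd13 at day 4 with and without VC. In 4F WT they included Hoxa9 at day 2 with VC, Hoxc5 and Hoxb2 at day 4, and Hoxa3, Hoxa5, Hoxc4 and Hoxc11 at day 4 with VC. Of the VC effects 4 of 9 and 4 of 10 held, and the calls of Hoxc6, Hoxa11, Hoxa10 and Hoxd8 in 4F D/KO and of Hoxa5, Hoxc12 and Hoxd8 in 4F WT were among those.

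Changes with time were smaller than the differences between D/KO and WT tail tip fibroblasts, but with VC at day 4 they were about as large as those between 4F D/KO and 4F WT. The median size of change of the tested members was 0.249 to 0.803 on the log2 scale over the 8 time comparisons, against 1.43 for D/KO against WT tail tip, 0.711 for WT skin against WT tail tip and 0.822 for 4F D/KO against 4F WT at day 0. At day 4 with VC it was 0.693 in 4F D/KO, with 13 members over 1, and 0.803 in 4F WT, with 12, as between the lines at day 0. Members that differed by more than 3 on the log2 scale numbered 0 to 2 in the time comparisons, 4 between the lines at day 0 and 13 in D/KO against WT tail tip. Spearman's rho of the 39 group means was 0.949 to 0.988 within the 6 groups of 4F D/KO, 0.953 to 0.988 within those of 4F WT and 0.751 to 0.881 between the lines. Summed fibroblast markers meanwhile went from 183500 to 253100 CPM in 4F D/KO at day 0 with VC to 33080 to 34250 at day 4 with VC, and from 155500 to 171400 to 60870 to 71980 in 4F WT. Collagens carry most of this sum: 7 of 9 markers were lower and Thy1 higher (0.79 on the log2 scale) in 4F D/KO, and 5 were lower and Thy1 (0.82) and Dcn (1.01) higher in 4F WT, with Vim not called in either. Summed keratinocyte markers reached 337 to 467 CPM in 4F D/KO and 10.2 to 12.1 in 4F WT at day 4 with VC. Summed endothelial markers in 4F D/KO went from 484 to 567 CPM at day 0 to 188 to 204 at day 4 without VC (Pecam1 -0.70, Cdh5 -2.34 and Kdr -1.78 on the log2 scale, all called), and with VC from 170 to 209 CPM at day 0 to 101 to 123 at day 2 and 283 to 384 at day 4, where Pecam1 was higher (1.76) and Cdh5 lower (-0.55). Sox9 and Des were lower in 4F D/KO at day 4 without VC (-2.16 and -0.97) and with it (-1.66 and -1.35), while Comp was higher without VC (0.44) and lower with it (-1.01) and Col2a1 was lower without VC (-1.27). Their part in the Hox changes was not tested. Of 24 other positional transcription factors, 7 were higher and 13 lower in 4F D/KO at day 4 with VC (27.9% and 26.2% of all genes). In 4F WT 6 were higher and 9 lower (22.7% and 22% of all genes), with Tbx15 higher by 2.06 ± 0.11. Shox2 was lower in both lines (-1.61 and -1.63).

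Members under the low-count filter were Hoxa2, Hoxa6, Hoxb1, Hoxd1, Hoxd3, Hoxd4, Hoxd11 and Hoxd12 in the inhibitor table, with no group mean above 0.550 CPM, and Hoxb1, Hoxd1, Hoxd3, Hoxd4 and Hoxd12 in the reprogramming table, with none above 0.483 CPM. Hoxb1, used in the hindbrain, was at 0 in every library. These members received no test.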

How the data were processed

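RNA of cultured fibroblasts was sequenced by the company Novogene on a NovaSeq with paired reads of 150 bases. Per the study's methods, reads were checked with FastQC, trimmed with Trim Galore, aligned to GRCm39 with HISAT2 and assigned to genes with featureCounts (versions and strand setting are not given in the sources used here). The deposited tables hold whole-number counts per gene, not normalized, with 1 column per library. Samples were grouped by their labels.

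Each table was analysed with edgeR 4.0.16 (R 4.3.3): filterByExpr (minimum count 10, minimum total 15), TMM scaling, 1 quasi-likelihood fit over all groups and Benjamini-Hochberg adjustment over all genes tested (15652 and 15832). The SE is the size of the log2 difference divided by the square root of F. The biological coefficient of variation was 0.195 and 0.132, and replicate pairs varied at least 4.26 and 3.25 times counting noise. Against groups at 0 a floor of 3 counts over the group was used. Intervals of count ratios (95%) and floors cover counting error only, since reads without molecular identifiers are not independent molecules. Scripts were tested on simulated data. Alternatives were DESeq2 1.42.0, its size factors in edgeR, no filter, only the groups compared, and each library left out.

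All 39 members were accounted for; library values were given for the genes numbered 13 and for called members with the largest log2 difference (up to 24 in skin against tail tip, up to 12 elsewhere), and of each fixed list the called genes with the largest differences (up to 5). Members with the highest levels were added after their values were seen. The results of 3 genes, 1 of them a member, are not reported here. Members and lists were chosen with earlier results of these data known.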

Additional observations from a re-analysis of the deposited data

Results flagged for a closer look

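The change from day 0 to day 4 was compared between 4F D/KO and 4F WT by an interaction term in edgeR's quasi-likelihood fit, with differences called at adjusted p under 0.05. Values are the log2 change in 4F D/KO minus that in 4F WT. Without VC the called members were Hoxb6 (-0.86), Hoxb9 (-0.66) and Hoxc13 (-0.48), which changed more negatively in 4F D/KO, and Hoxd13 (4.88).

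With VC, not all called members are given here. Posterior members that changed more negatively in 4F D/KO were Hoxa9 (-0.86), Hoxa10 (-0.62), Hoxa11 (-1.09), Hoxa13 (-0.61), Hoxb9 (-1.16), Hoxb13 (-0.71), Hoxc11 (-0.86), Hoxc12 (-0.88) and Hoxc13 (-0.63). Central members were Hoxb5 (-1.43), Hoxb6 (-1.38), Hoxc4 (-2.63) and Hoxc8 (-3.99). Hoxa7 (1.35) and Hoxd13 (3.40) changed more positively. Hoxd13 was at 0 in 4F D/KO at day 0 without VC and had 3 counts with VC, so that both of its values depend on the prior count and are no bounds. Line, genotype, sex and age differ together between 4F D/KO and 4F WT and cannot be told apart.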

How the results depend on the processing

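Of 277 results of single members that were called, 192 kept their direction and call in every alternative run. DESeq2's size factors lost 0 calls and DESeq2's own test lost 6, no filter lost 28, and fitting only the groups compared lost 29. The single reversal was Hoxa13 in WT skin against WT tail tip, with a difference of 0 without skin library 1, which held all of its counts (its fitted value, which depends on the prior count and is no bound, ran from 0 to 4.35 when 1 library was left out). With only the groups compared, called members went from 15 to 8 in WT skin against WT tail tip, from 12 to 7 with Repsox and from 2 to 1 in 4F WT at day 2. With no filter, members whose change to day 4 differed between the lines without VC went from 4 to 2. The cause was not tested. With 1 library left out, counts ran from 0 to 2 with DMH-1, from 4 to 8 in 4F D/KO at day 2, from 1 to 4 in 4F WT at day 2, from 4 to 7 in 4F WT at day 4, from 6 to 9 for VC in 4F WT, and from 1 to 4 for the difference between lines without VC. With DMH-1 the count was 0 without D/KO library 2 and 1 without D/KO library 1 or 3 or DMH-1 library 2. For the difference between lines without VC, the count was 2 without 4F D/KO day 0 library 1 or 4F WT day 4 library 2 or 3. It was 1 without 4F D/KO day 0 library 2 or 3, 4F D/KO day 4 library 2 or 4F WT day 0 library 1. The other libraries that moved a count are named in the report. No paired analysis was possible because the labels give no replicate number that groups share. Depth limits the members with few counts, whose ratios carry wide counting intervals. If the 3 libraries of a group are of 1 line, as they appeared to be, they do not show how mice vary.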

Other observations

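Of 8 tested upstream regulators, Cyp26b1, an enzyme that breaks down retinoic acid, was higher in WT skin than in WT tail tip by 2.04 ± 0.20 on the log2 scale (adjusted p = 8.0e-08, edgeR) and higher in D/KO than in WT tail tip by 1.53 ± 0.20. With Repsox, Vactosertib and A83-01 it was higher than in D/KO by 1.73, 1.45 and 1.32. Rarb, a retinoic acid receptor, was also called higher in WT skin and in D/KO, at group means of 0.179 and 0.288 CPM against 0.0258 CPM in WT tail tip. Gdf11, a ligand that acts on posterior Hox genes in the embryo, was lower at day 4 than at day 0 with VC by -1.53 in 4F D/KO and -1.09 in 4F WT.

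Of 8 tested genes that flank the clusters, 1 was higher in WT skin than in WT tail tip (Lnpk, 0.41 ± 0.16) and 1 lower (Calcoco1, -0.85 ± 0.26), where 34.2% of all genes were called. Skap2, beside cluster a, was the only flanking gene called in D/KO against WT tail tip (-0.93 ± 0.10, adjusted p = 3.1e-07, edgeR), where 34.6% of all genes were called, while all 9 tested members of cluster c were called in that comparison.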
